A study of Mus musculus with 8 samples.

Results

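The neuronal intermediate filament genes Nefl, Nefm, Nefh, Ina and Prph were examined in mouse dorsal root ganglia, which house the cell bodies of the body's sensory neurons. They were chosen by gene name, 5 of the 40800 gene identifiers in the table, and all 5 were among the 15030 genes with enough reads to be tested. RNA was sequenced from 4 wild-type C57BL/6 mice (numbered 1, 3, 4 and 8) and 4 homozygous Tmem184b gene trap mutants (numbered 1 to 4), per the labels on a C57BL/6 background. All 8 were 6 months old. Such a trap diverts splicing into an inserted cassette and truncates the transcript, and it is carried in the germ line, so no cell type was targeted. The labels give no sex, litter or batch, and the whole ganglion holds neurons, satellite glia, Schwann cells, vessels and connective tissue.

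Neurofilaments are the intermediate filaments of neurons and set the calibre of large myelinated axons. The light chain NF-L, from Nefl, forms the filament core. The medium and heavy chains NF-M and NF-H, from Nefm and Nefh, join it and carry long side arms with many phosphorylation sites. Alpha-internexin, from Ina, and peripherin, from Prph, are further subunits that can assemble with the neurofilament triplet. In sensory ganglia the triplet is known for its high level in large myelinated neurons and peripherin for its high level in small, mostly unmyelinated ones, while alpha-internexin is best known from the central nervous system.

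Of these 5 genes, Ina was the 1 that passed the test, and it was lower in the mutant. Its mean fell from 71.1 ± 5.61 to 56.1 ± 2.75 CPM (reads scaled to the library total; SD, n = 4 each), a log2 difference of -0.34 with a standard error of 0.071 and a limma adjusted p of 0.0141. Nefl, Nefm and Nefh, the neurofilament triplet, had log2 differences between 0.11 and 0.13, and Prph had -0.06. None of these 4 passed. In all, 1 of 5 was called, and 5.46% of tested genes were called at the same threshold of an adjusted p under 0.05, made up of 2.81% of tested genes higher and 2.64% lower. Differences are mutant minus wild type throughout.

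The 5 genes code for relatives of 1 protein family, so their coding sequences (GENCODE M21, GRCm38) were compared to see whether reads of 1 gene could be counted for another. Over the coding bases aligned without a gap, 1294 to 2266 per pair, identity was 55.5% (Nefh and Prph) to 63.1% (Nefm and Ina). The longest run of identical bases between the principal transcripts of any pair was 35, between Nefm and Prph. The reads were 150 bases long per the labels. A read of that length within the coding sequence therefore always held bases that differ between any pair of these genes.

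On GRCm38, Nefl (ENSMUSG00000022055, plus strand) lies at chr14:68083863-68089095 and Nefm (ENSMUSG00000022054, minus strand) at chr14:68082590-68124846. The principal Nefm transcript is separated from Nefl by 30187 bases, with its 3′ end towards Nefl, but a second, longer Nefm transcript runs across Nefl and shares 1108 exon bases with it on the opposite strand. Nefh (ENSMUSG00000020396) lies at chr11:4938754-4948064 on the minus strand, Ina (ENSMUSG00000034336) at chr19:47014698-47025327 on the plus strand, and Prph (ENSMUSG00000023484) at chr15:99055174-99058978 on the plus strand. Ina shares 456 exon bases with Nt5c2, a cytosolic nucleotidase gene on the opposite strand. The sources used here do not state whether counting used the strand, so reads from such shared bases cannot be assigned with certainty. Nt5c2 itself had a log2 difference of 0.03 (SE 0.070, limma adjusted p = 0.836).

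Tmem184b, the trapped gene and a multi-pass membrane protein gene, checked the labels. It read 7.43, 7.51, 7.37 and 7.36 log2 CPM in wild type against 2.68, 2.86, 2.47 and 3.10 in mutant animals, a residual 3.89% of the wild-type CPM (limma adjusted p = 2.57e-12). Library totals ran from 6183618 to 7983821 reads. The median tested gene had a log2 difference of 0.07, and 90% of genes lay between -0.32 and 0.54. An unadjusted p under 0.05 by limma was reached by 3206 of the 15030 tested genes, 21.3%. Thy1, named after its values were seen, set 2 wild types apart: number 4 stood at 11.18 and number 8 at 11.83 log2 CPM, against 9.53 to 9.78 for the other 6 libraries. Without these 2 libraries 401 genes were higher and 255 lower, against 423 and 397 with all 8.

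Nefl, the gene of the core-forming light chain, read 10.98, 11.27, 11.05 and 11.21 log2 CPM in wild types 1, 3, 4 and 8 against 11.33, 11.13, 11.09 and 11.41 in mutants 1 to 4. The groups overlapped: mutants 1 and 4 were above every wild type, and mutants 2 and 3 were within the wild-type range. Mean CPM was 2243 ± 203 for wild types against 2428 ± 260 for mutants (SD, n = 4). The log2 difference was 0.11 (SE 0.082, 95% interval -0.06 to 0.29, limma adjusted p = 0.464).

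Nefm, the medium chain gene and the one with most reads of the 5, read 11.50, 11.73, 11.69 and 11.77 in wild type against 11.88, 11.75, 11.66 and 11.83 in mutant libraries. Wild type 1 was the lowest library, and the other 3 wild types lay among the mutants. The log2 difference was 0.11 (SE 0.072, 95% interval -0.05 to 0.26, limma adjusted p = 0.427), between means of 3273 ± 261 and 3521 ± 239 CPM (SD, n = 4).

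Nefh, the heavy chain gene, read 11.28, 11.41, 11.36 and 11.46 in wild type against 11.59, 11.45, 11.44 and 11.53 in mutant libraries. Wild type 8 alone overlapped the mutants, by 0.02. The log2 difference was 0.13 (SE 0.062, 95% interval -0.01 to 0.26). Its unadjusted p from limma was 0.0586 and its adjusted p 0.257. Mean CPM was 2662 ± 142 in wild type and 2905 ± 150 in mutant mice (SD, n = 4).

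Ina, the alpha-internexin gene, read 6.12, 6.14, 6.05 and 6.31 log2 CPM in wild type against 5.90, 5.77, 5.85 and 5.75 in mutant libraries. All 4 mutants were below all 4 wild types, a separation that 12.4% of tested genes showed, 7.5% towards higher and 4.92% towards lower values. The log2 difference of -0.34 had a 95% interval of -0.49 to -0.19, equal to a change of -20.9% with an interval of -28.8% to -12.1%, and 4.64% of tested genes had a difference as low or lower. The reads behind it were few beside those of the triplet: 436, 560, 445 and 626 in wild type against 397, 335, 373 and 374 in mutant libraries. At 335 reads the counting error alone is 5.46% of the value, and the spread between animals was 7.89% of the mean in wild type and 4.89% in the mutant. The call was lost in 4 of 22 alternative settings, and the difference was below 0 in all 22. The adjusted p from limma was 0.0863 without a variance trend and 0.0511 without wild types 4 and 8, where the difference was -0.31.

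Prph, the peripherin gene, read 10.76, 10.74, 10.77 and 10.90 in wild type against 10.66, 10.84, 10.70 and 10.72 in mutant libraries. Mutants 1, 3 and 4 were below every wild type and mutant 2 was above 3 of the 4. Its log2 difference was -0.06 (SE 0.059, 95% interval -0.19 to 0.06, limma adjusted p = 0.574), between means of 1778 ± 91.2 and 1700 ± 94.1 CPM (SD, n = 4). Prph lies on the same chromosome as the trapped gene, 19.7 Mb away.

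**Figure D1:**
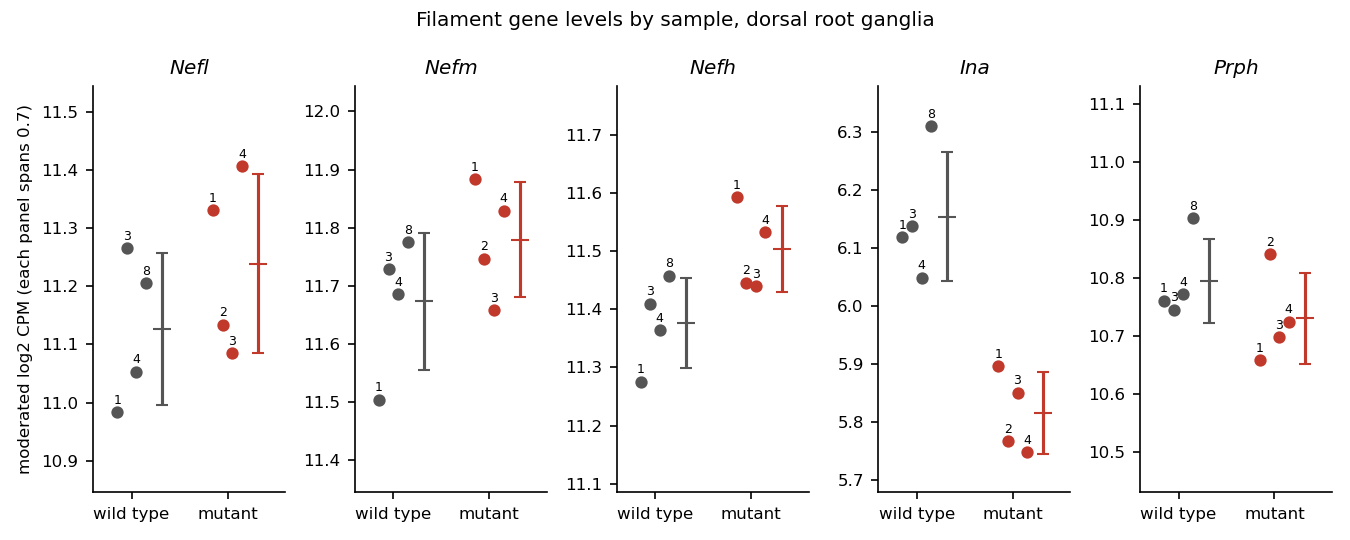
Moderated log2 CPM of the 5 filament genes in each of the 8 libraries, 1 panel per gene, with a numbered point per animal and the group mean ± SD (n = 4) beside it. Each panel has its own range of equal span on the vertical log2 axis. Ina is the gene whose 4 mutants (5.75 to 5.90) all lie below its 4 wild types (6.05 to 6.31), while the groups overlap for the other 4.

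Levels can be compared between genes only per length, and for this CPM was divided by the length of the principal transcript in kilobases. By that measure Nefm stood at 982 ± 78.2 CPM per kb in wild type and 1056 ± 71.8 in mutant mice (SD, n = 4). Prph followed at 954 ± 49.0 and 913 ± 50.5, then Nefh at 667 ± 35.5 and 727 ± 37.6 and Nefl at 664 ± 60.1 and 718 ± 76.8. Ina was far lower at 21.9 ± 1.73 and 17.3 ± 0.847 CPM per kb. The order Nefm, Prph, Nefh, Nefl, Ina held in 5 of 8 libraries. Prph exceeded Nefm in wild type 1, and Nefl exceeded Nefh in wild type 3 and mutant 4. Nefh and Nefl did not differ beyond their spread in either group, and Nefm and Prph did not in the wild type.

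Together the 5 genes took 0.921% to 1.11% of all library reads, 1.003 ± 0.064% in wild type and 1.06 ± 0.059% in mutant mice (SD, n = 4), and the groups overlapped. Of their summed CPM per kb, Nefm held 29.8 ± 0.839% in wild type and 30.8 ± 0.781% in the mutant, and Nefl 20.2 ± 0.989% and 20.9 ± 1.37%. Nefh held 20.3 ± 0.151% and 21.2 ± 0.581%, with every mutant above every wild type. Prph held 29.1 ± 1.34% and 26.6 ± 2.08%, with overlap. Ina held 0.667 ± 0.037% and 0.506 ± 0.037%, with no overlap. Shares of 1 sum move against each other, so these 5 are not separate results, and they were not tested.

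The proportions of the triplet subunits were compared because NF-L, NF-M and NF-H assemble together. Per kilobase there were 0.995 ± 0.053 Nefl for each Nefh in wild type and 0.986 ± 0.069 in the mutant, and 1.47 ± 0.045 and 1.45 ± 0.039 Nefm for each Nefh (SD, n = 4). The log2 ratio of Nefl over Nefm differed by 0.0062 (exact permutation p = 0.914), that of Nefl over Nefh by -0.014 (exact p = 0.771) and that of Nefm over Nefh by -0.02 (exact p = 0.457), and the signs of these 3 small differences changed in some alternative settings. Each triplet ratio thus differed between the group means by 1.37% or less, and by less than the spread between animals. A p above the threshold does not show that the ratios were equal.

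Ratios with Ina moved the most. The log2 ratio of Nefh over Ina was 5.16, 5.27, 5.32 and 5.15 in wild type against 5.70, 5.68, 5.59 and 5.78 in mutant libraries. All 4 mutants were above all 4 wild types, by 38.0% on average. Nefl over Ina differed by 0.45 and Nefm over Ina by 0.44, again with no overlap. Ina over Prph was -4.64, -4.61, -4.72 and -4.59 in wild type against -4.76, -5.07, -4.85 and -4.98 in mutant libraries, a difference of -0.27. Each of these 4 ratios reached an exact permutation p of 0.0286, the smallest that 4 against 4 animals can give, and 0.0714 after adjustment over all 10 ratios, so none of the 10 passed. With only these 4 at the smallest p, no size of difference could have brought the adjusted value under 0.05. All 4 hold Ina, whose own groups did not overlap, so they are not 4 separate results. How often ratios of other genes separate the groups was not computed. Per kilobase, Ina stood at 3.32 ± 0.270% of Nefl in wild type and 2.43 ± 0.292% in the mutant, and at 2.30 ± 0.092% and 1.90 ± 0.182% of Prph (SD, n = 4).

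The 3 triplet genes were also set against Prph, since they mark different sizes of neuron. The log2 ratio of Nefh over Prph was 0.52, 0.66, 0.59 and 0.56 in wild type against 0.94, 0.61, 0.74 and 0.81 in mutant libraries. Mutant 2 alone fell within the wild-type range. The difference was 0.19 (exact permutation p = 0.0571, adjusted over 10 ratios 0.114). Nefm over Prph differed by 0.17 (exact p = 0.143) and Nefl over Prph by 0.18 (exact p = 0.2), with more overlap.

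**Figure D2:**
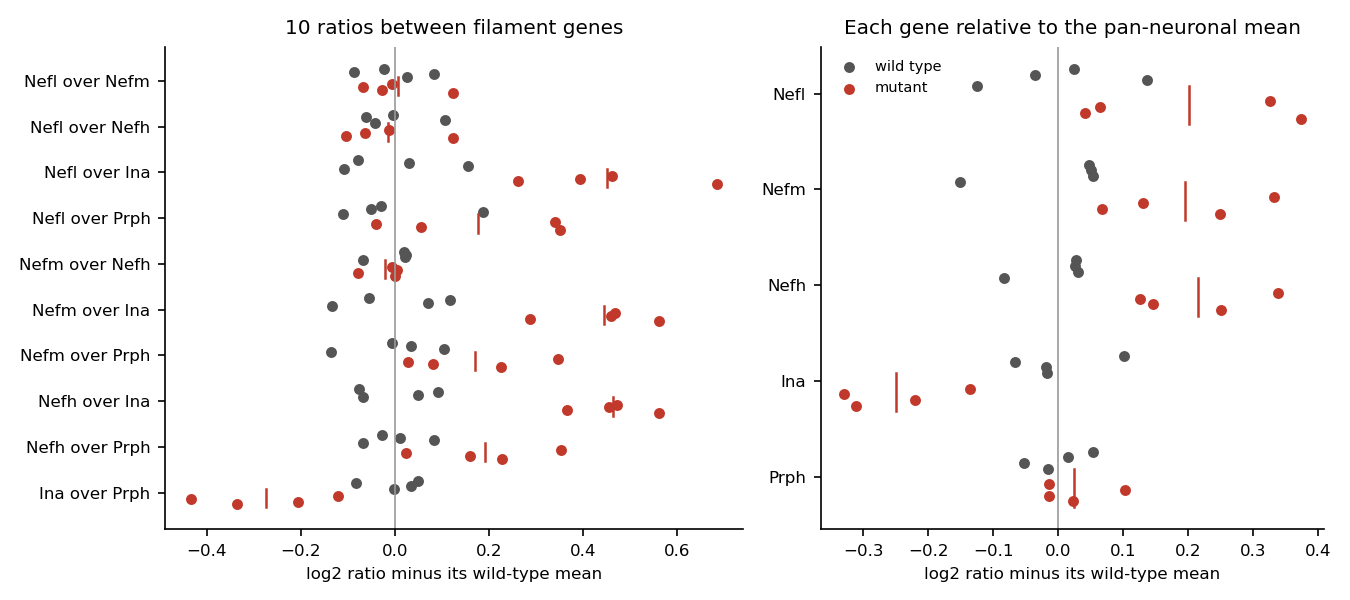
Log2 ratios between the 10 pairs of filament genes (left) and log2 level of each gene relative to the pan-neuronal mean (right), both minus their wild-type mean, with a point per animal, the mutant mean as a red bar and the wild-type mean as the line at 0. The 4 ratios that hold Ina separate the groups, and the 3 within the triplet differ by 0.02 or less.

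In whole ganglia, fewer cells of a type and less RNA per cell cannot be told apart, and a shift in the share of neuronal RNA would bear on all 5 genes. Each was therefore also taken relative to the mean log2 CPM of 15 pan-neuronal genes. That mean was 8.85 ± 0.040 in wild type and 8.76 ± 0.027 in mutant mice (SD, n = 4), with every mutant below every wild type. Relative to it, Nefh differed by 0.22, Nefm by 0.20 and Ina by -0.25, each without overlap and each with an exact permutation p of 0.0286, or 0.0476 adjusted over the 5 genes. The adjusted value was under 0.05 only because 3 of the 5 reached that smallest p together. Nefl differed by 0.20 (exact p = 0.114) and Prph by 0.02 (exact p = 0.457). The reference itself had a difference of -0.09, and the median tested gene 0.07, so an unchanged gene stands above 0 on this scale. Without the reference, 61.8% of tested genes had a difference at or below that of Nefh, 58.2% that of Nefm and 4.64% that of Ina. The share of all tested genes that separate on this scale was not computed. The 3 passing values depended on the reference: with the pan-neuronal median in place of the mean none of the 5 passed, and Nefl stood at 0.36, Nefm at 0.36, Nefh at 0.38, Ina at -0.09 and Prph at 0.19. None passed either when any 1 of the 4 wild types was left out, with 35 arrangements of 3 against 4, though the differences were 0.19 to 0.23 for Nefh, 0.14 to 0.21 for Nefm and -0.27 to -0.22 for Ina.

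The 15 pan-neuronal genes had a median log2 difference of -0.14 against 0.07 for all genes, with 2 lower and none higher: Syt1, a synaptic vesicle calcium sensor (-0.25, limma adjusted p = 0.0146), and Avil, an actin-binding protein of sensory neurons (-0.22, adjusted p = 0.0203). Among all tested genes 2.64% were called lower. Syt1 was called in 18 of 22 alternative settings and Avil in 14, not without wild type 1 or 3 or mutant 1 or 2. The 15 genes summed to 10066 to 10961 CPM in wild types and 9931 to 10491 CPM in mutants.

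Other intermediate filament genes held 9 of 11 that could be tested, and limma called none of them (median log2 difference 0.01), with 3 at an unadjusted p under 0.05, against 21.3% of all tested genes, and none called by voom on the recovered reads. Krt8 and Krt18, keratins of simple epithelia, were too low to test. Synm, the synemin gene, had the most reads of them, a mean of 9.50 log2 CPM, and a difference of -0.12 (limma adjusted p = 0.264). Vim, the vimentin gene of glia and fibroblasts, averaged 8.83 log2 CPM and had 0.21 (adjusted p = 0.135).

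The filament linkers and the motors that carry neurofilaments along axons were 14 genes, all tested, and limma called none (median -0.05), with 2 of 14 at an unadjusted p under 0.05, against 21.3% of all tested genes. Voom on the recovered reads called 1 of them, Dctn1, a dynactin subunit gene named after its values were seen, at -0.19 and a limma adjusted p of 0.0550. Map1b, a microtubule-associated protein gene, averaged 14.03 log2 CPM and differed by 0.06 (limma adjusted p = 0.683). Dync1h1, the dynein heavy chain gene for transport towards the cell body, averaged 11.91 and differed by -0.07 (adjusted p = 0.675).

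Kinases and phosphatases that act on neurofilament side arms were 17 genes, of which 2 fell and none rose (median 0.01). Over all tested genes, 2.64% were called lower and 2.81% higher. Camk2a, the alpha chain of calcium/calmodulin-dependent kinase II, read 8.18, 8.10, 8.11 and 8.17 log2 CPM in wild type against 7.31, 7.43, 7.49 and 6.80 in mutant libraries. Every mutant was below every wild type, and the difference was -0.89 (SE 0.112, limma adjusted p = 0.000638). Mapk3, the ERK1 gene, fell by 0.20 (SE 0.050, limma adjusted p = 0.0287), a call that held in 11 of 22 alternative settings, not without wild type 1, 3 or 4 or mutant 1 or 4. Gsk3b, another neurofilament kinase gene, had -0.16 (adjusted p = 0.124).

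Of 11 genes for filament turnover and binding of neurofilament RNA, 2 rose and none fell (median 0.01). Among all tested genes 2.81% were called higher. Hspb1, a small heat shock protein gene whose mutations disturb neurofilament assembly, read 5.30, 5.39, 5.31 and 5.24 log2 CPM in wild type against 5.72, 5.71, 5.71 and 5.93 in mutant libraries. The groups did not overlap, and the difference was 0.46 (SE 0.074, limma adjusted p = 0.00298). Usp2, a deubiquitinase gene, rose by 0.74 (SE 0.122, adjusted p = 0.00335). Whether it acts on filament proteins in these ganglia was not tested. Trim2, a ubiquitin ligase gene for the light chain, had -0.016 (adjusted p = 0.905), and Sod1, the superoxide dismutase gene, had 0.01 (adjusted p = 0.961). Camk2a, Hspb1 and Usp2 were called in all 22 alternative settings.

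The filament genes divide by neuron size, so markers of the neuron classes were counted beside them. For comparison, 2.81% of all tested genes were called higher and 2.64% lower. Of 18 genes of large myelinated neurons, 1 rose and none fell (median 0.09): Calb1, a calcium buffer gene, at 0.54 (limma adjusted p = 0.0237), in 17 of 22 alternative settings, not without wild type 1 or 3 or mutant 1 or 4. They summed to 4459 to 7476 CPM in wild types and 4840 to 5282 CPM in mutants, the former range holding the high Thy1 of wild types 4 and 8. Of 12 genes of nonpeptidergic small neurons, 11 fell (median -0.69). The smallest adjusted p-values were those of the lysophosphatidic acid receptor gene Lpar3 (-0.72, adjusted p = 0.000390), Lpar5 (-1.01, adjusted p = 0.000581) and the semaphorin receptor gene Plxnc1 (-0.67, adjusted p = 0.00134). Voom called 10 of the 12, and limma without a variance trend called 2. Mrgpra3, an itch receptor gene named after its values were seen, was called in 10 of 22 alternative settings, not without wild type 1 or 8 or mutant 1, 2 or 4. Their summed level was 5617 to 5891 CPM in the wild types and 3399 to 4622 CPM in the mutants. Of 8 genes of peptidergic small neurons, 1 fell, Calcb, which codes for a calcitonin gene-related peptide (-0.31, adjusted p = 0.0329), and the median was -0.01. Calcb was called in 13 of 22 alternative settings, not without wild type 3, 4 or 8 or mutant 1 or 3. The part of these differences in the level of Ina was not tested.

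Some markers of other cells were called higher. Of all tested genes, 2.81% were called higher and 2.64% lower. Satellite glia had 1 of 7 higher, Glul (0.49, limma adjusted p = 0.0101), with summed levels of 1874 to 2277 CPM in the wild types and 2067 to 2873 CPM in the mutants. Myelinating Schwann cells had 2 of 9 higher, Ncmap (0.69, adjusted p = 0.00157) and Drp2 (0.40, adjusted p = 0.0203), with 2460 to 3229 and 2915 to 3518 CPM. Immune cells had 1 of 7 tested higher, Cd163 (0.80, adjusted p = 0.0208), with 48.2 to 77.5 and 67.3 to 106 CPM. Fibroblasts had 1 of 6 higher, Dcn (0.60, adjusted p = 0.0082), with 611 to 1222 and 794 to 1177 CPM. Neither limma nor voom called any of 5 endothelial, 6 tested skeletal muscle, 6 tested central nervous system and 7 tested nerve injury genes, of which 1, 5, 1 and 1 had an unadjusted p under 0.05 by limma, against 21.3% of all tested genes. The muscle genes, 37.5 to 74.1 CPM in sum in the wild types and 60.1 to 216 CPM in the mutants, had a median of 1.63. Pvalb, which is also in the large myelinated neuron list, held 34.0 to 44.1 CPM of that sum in the wild types and 45.8 to 60.9 CPM in the mutants. The other muscle genes summed to 3.49 to 32.9 CPM and 10.5 to 155 CPM, with overlap, and the 5 of them tested had a median of 1.66. Gal and Gap43, in the nerve injury list, and Mag, in the central nervous system list, also stand in a second list. Of these, Cd163 was called in 16 of 22 alternative settings, not without wild type 8 or mutant 1 or 4, and Drp2 in 17, not without wild type 1 or 3 or mutant 1 or 4. The part of these lists in the levels of the filament genes was not tested.

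**Figure D3:**
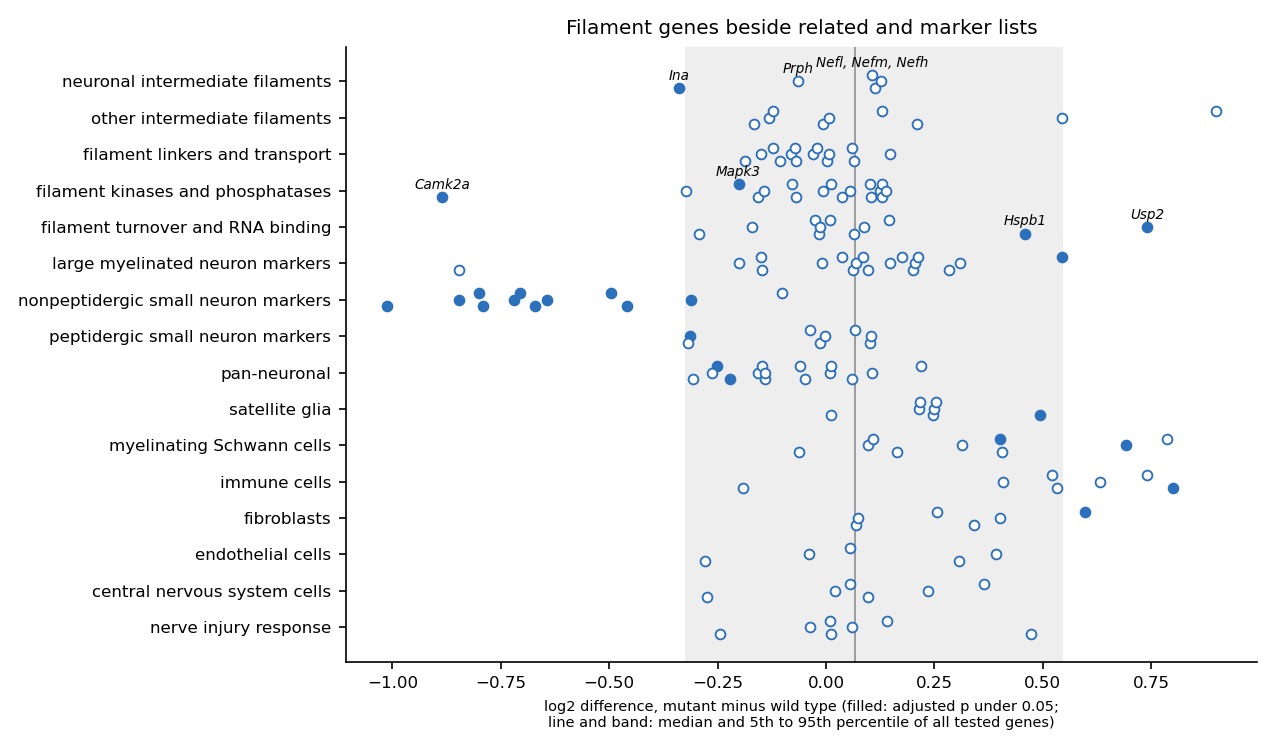
Log2 difference of each tested gene in the filament, related and marker lists, 1 row per list, filled where the limma adjusted p was under 0.05. The vertical line is the median of all tested genes and the grey band their 5th to 95th percentile. Ina lies at -0.34, just below the lower edge of the band at -0.32, apart from Nefl, Nefm and Nefh at 0.11 to 0.13; the skeletal muscle list is not drawn.

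Across the 8 libraries, the genes most like each filament gene were found by the root mean square difference of mean-centred log2 CPM, among 5647 other genes averaging 5 log2 CPM or more. Nefm had Nefh as its 3rd nearest gene (0.038), after Nfe2l2 and Faim2, and Nefh had Nefm as its 4th, after Strn, Ubxn6 and Faim2. Nefl was nearest to Psmd8, Pdhb and Sh3gl2 (0.044 to 0.048), with Nefm 37th and Nefh 88th. Prph was nearest to Hras, Lsm14b and Bag1 (0.025 to 0.036). Ina was nearest to Fgf13 (0.045), Mpped2 (0.047) and Tusc5 (0.053), all 3 lower in the mutant, at -0.31, -0.34 and -0.30 (limma adjusted p = 0.00584, 0.0340 and 0.0168). Seen from Nefl, Nefm or Nefh, Ina ranked 5004th to 5138th. Nearness is a description over 8 libraries that share the group difference. Genes this near to Ina were therefore bound to be lower in the mutant, and their adjusted p-values are no separate support.

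The nearest tested protein-coding genes on the chromosome were not called for any of the 5. In increasing coordinates the order was Dock5 (0.09, limma adjusted p = 0.432), Nefl, the principal Nefm transcript and Stc1 (1.35, SE 0.416, adjusted p = 0.0742). Nefh lies between Thoc5 (0.08, adjusted p = 0.620) and Ap1b1 (-0.10, adjusted p = 0.313), Ina between Nt5c2 and Pcgf6 (0.05, adjusted p = 0.903), and Prph between Tuba1c (-0.10, adjusted p = 0.858) and C1ql4 (-0.25, adjusted p = 0.473).

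Promoters are shown for Ina, the gene that fell, and Prph, a relative that was not called; these 2 of the 5 had an entry in the RefSeq promoter table (GRCm38.p6). Each is the 250 bases before the RefSeq start on the plus strand, and capitals mark, on either strand, matches to the TATA box, GC box and E-box letters given after them, none of which overlap.
Ina, chr19:47014431-47014680: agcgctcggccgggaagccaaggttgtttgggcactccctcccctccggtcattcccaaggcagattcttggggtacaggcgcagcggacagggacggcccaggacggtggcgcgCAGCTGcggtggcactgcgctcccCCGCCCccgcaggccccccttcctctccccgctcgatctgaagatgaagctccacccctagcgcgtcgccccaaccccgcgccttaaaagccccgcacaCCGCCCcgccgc
Prph, chr15:99054924-99055173: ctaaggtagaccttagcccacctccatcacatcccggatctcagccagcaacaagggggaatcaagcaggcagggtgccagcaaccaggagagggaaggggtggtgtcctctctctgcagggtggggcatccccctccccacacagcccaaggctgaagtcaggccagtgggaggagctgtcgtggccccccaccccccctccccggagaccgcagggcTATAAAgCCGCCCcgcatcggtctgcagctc
The Prph window held the exact TATA box letters, TATAAA, 31 bases before the start, and the Ina window did not. Of 32851 mouse promoters of this length, 12.4% hold them. Other stretches rich in A and T, such as the ttaaaa near the end of the Ina window, were not searched for. Both held the GC box, GGGCGG, 2 matches in Ina and 1 in Prph, as do 32.7% of promoters. The E-box CAGCTG was in the Ina window alone, 135 bases before the start, and in 13.0% of promoters. The Ina window was 70.8% G and C with 25 CG dinucleotides, and that of Prph 65.2% with 7, against medians of 52.4% and 6. These letters describe the windows, and no binding was measured.

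**Figure D4:**
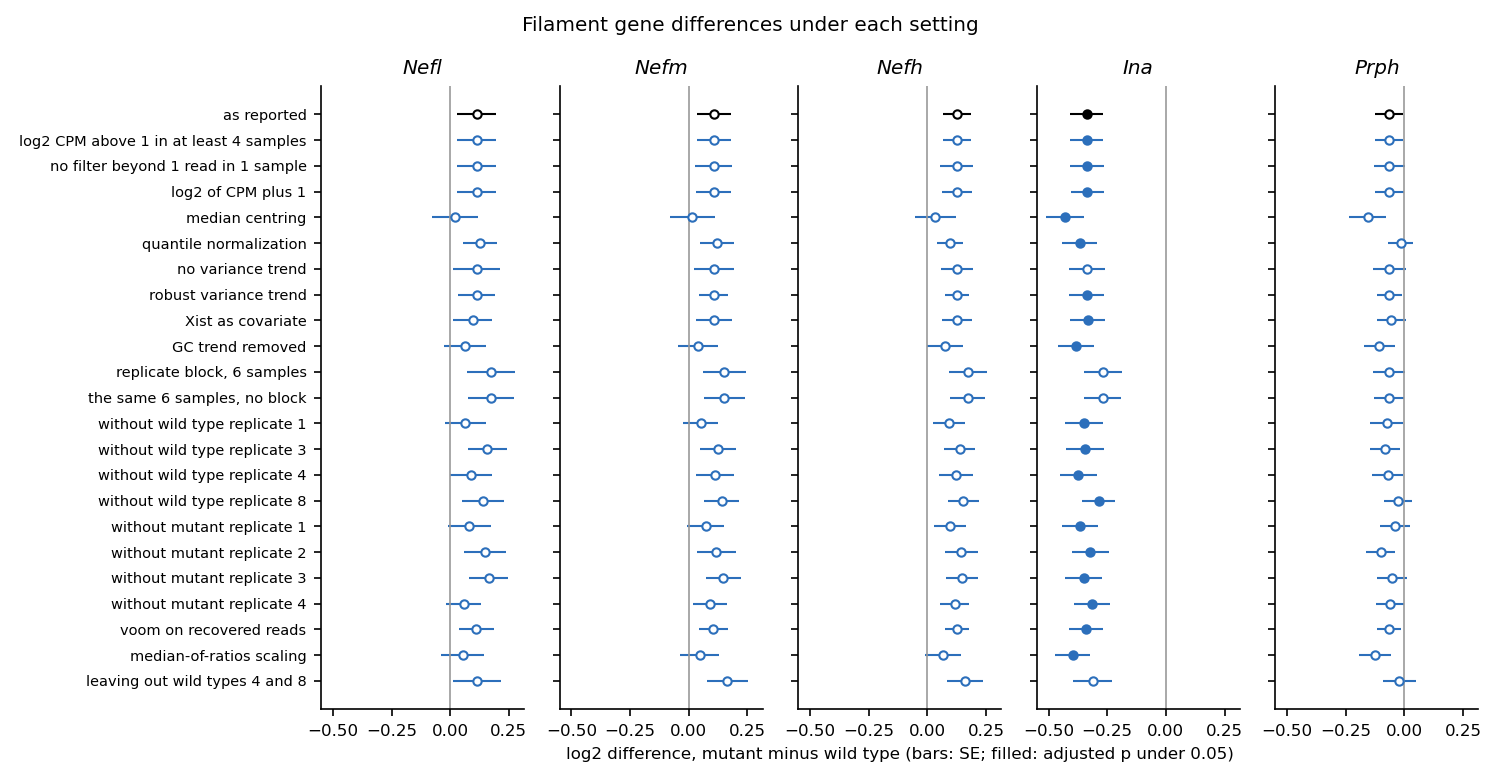
Log2 difference of each filament gene under the analysis reported here and under the alternative settings, 1 point per setting with its standard error as a bar, filled where the adjusted p was under 0.05. Ina runs from -0.43 to -0.27 and lies below 0 in every setting, and the 3 triplet genes lie between 0.01 and 0.17.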

How the data were processed

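What the authors deposited is a single table of log2 CPM per gene and library, moderated by a small prior count per its name and values, with a GC percent per gene that was used as deposited; per the submitters' processing notes Salmon 0.11.1, DESeq2 and mm9 were used, in roles not given in the sources used here, and strand use is not stated. The table has 41422 lines for 40800 identifiers, and the 402 repeated ones were identical and used once. Values convert back to whole reads in 100.0% of cases (tolerance 0.05 reads, mean prior 2 reads). Genes above 0 log2 CPM in at least 4 of 8 libraries, 15030 in all, were fitted with limma 3.58.1 (lmFit, eBayes with a variance trend, R 4.3.3). P-values were adjusted by Benjamini-Hochberg over all tested genes, threshold 0.05. The fit was also run on simulated reads that used the same variance setting for every gene. Its outcome is not given here and lends no weight to the calls. Ratios and pan-neuronal-relative values had 2-sided exact permutation tests over 70 arrangements. Intervals are 95%, and depth limits Ina most. Per the labels each genotype had 4 mice, and 150-base single-end reads came from total RNA per the labels.

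CPM per kb used the principal GENCODE M21 transcript (GRCm38, not the submitters' build, so coordinates only place the genes; 40254 of 40800 identifiers matched). Coding sequences were aligned with mafft 7.526.

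The 5 genes and the gene lists were chosen with earlier results of these data known. Named are Tmem184b, the 5 genes, every called gene and the 2 with the highest mean of each filament-related list, up to 3 called genes of smallest adjusted p of each cell marker list, the 3 nearest genes by pattern and the nearest tested coding neighbours. Alternatives covered scaling, filters, variance trend, GC, pseudocount, Xist as a covariate, reference genes, leaving out each library and, added after seeing the data, voom on recovered reads, median-of-ratios scaling and leaving out wild types 4 and 8. One marker gene and the stretches of coding sequence compared are not reported here.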

Additional observations from a re-analysis of the deposited data

Results flagged for a closer look

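Among 40 groups of 4 libraries checked for a value standing apart, 4 did so by Dixon's 95% criterion, and about 2 would by chance, 1 in 20. The log2 ratio of Nefm over Nefh was 0.228 in wild type 1, against 0.316 to 0.321 in the other 3 wild types. The same ratio was 0.218 in mutant 3, against 0.290 to 0.3004 in the other mutants. Relative to the pan-neuronal mean, Nefm stood at 2.67 in wild type 1, against 2.87 to 2.88 in the others. Nefh on that scale stood at 2.45 in wild type 1, against 2.56 in the other 3. Wild type 1 had the lowest Nefl, Nefm and Nefh of all 8 libraries. Without it their log2 differences were 0.06, 0.05 and 0.09, against 0.11, 0.11 and 0.13 with all 8. Leaving out another library gave up to 0.16 for Nefl and 0.15 for Nefm (without mutant 3) and 0.15 for Nefh (without wild type 8). Median centring gave 0.02, 0.01 and 0.03, and quantile normalization 0.13, 0.12 and 0.10.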

How the results depend on the processing

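Against 423 genes higher and 397 lower, median centring gave 204 and 706 (22.4% of calls higher, against 51.6%), quantile normalization 271 higher (39.1%), a removed GC trend 257 and 604 (29.8%), median-of-ratios scaling 240 higher (29.4%), no variance trend 67 and 75, and an adjusted p under 0.1 876 and 612. Voom on recovered reads gave 415 and 399. Leaving out 1 library gave 174 (without wild type 1) to 572 (without wild type 4) higher, with 226, 183, 266 and 206 without wild type 3 and mutants 1, 2 and 4, and 230 (without wild type 1) to 427 lower, and leaving out wild types 4 and 8 gave 255 lower. Ina was no longer called without a variance trend (-0.34), without wild types 4 and 8 (-0.31), or in the 6 samples with shared numbers, with the replicate block (-0.27, limma adjusted p = 0.0855) or without it (-0.27, limma adjusted p = 0.0876). Without 1 library it stayed called at -0.37 to -0.29. Its adjusted p ran from 0.00471 to 0.0876 over all 22 settings. The other 4 genes were called in none of the 22 and kept their direction.

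Both groups share the numbers 1, 3 and 4, and the labels do not say whether these pair the animals. The correlations of deviations between animals of the same number were 0.081, 0.041 and 0.058. No reference value from animals of different numbers was computed, so pairing is not settled. Under the replicate block 326 genes were higher and 345 lower, against 180 higher and 267 lower without the block in the same 6 samples. Ratios under the block are mean differences with no test.

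Uncalled ratios near 0 changed sign. Quantile normalization gave Nefl over Nefh 0.032 and Nefm over Nefh 0.023, and leaving out 1 library gave Nefl over Nefm -0.033 to 0.034 and Nefl over Nefh -0.059 to 0.022. Prph relative to the pan-neuronal mean ran from -0.0021 to 0.042 without 1 library and was 0.19 with the pan-neuronal median. The count of 3 genes passing on that scale was 0 under quantile normalization, with the pan-neuronal median, and without any 1 wild type, and 3 without any 1 mutant. Without any 1 wild type the differences were 0.19 to 0.23 for Nefh and -0.27 to -0.22 for Ina, and under quantile normalization 0.14 and -0.32. Depth limits Ina, at 335 to 626 reads, more than the others, at 10781 or more.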
